A study of Mus musculus with 6 samples.

Results

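Genes of choline uptake and of phosphatidylcholine synthesis and remodelling, 10 of them, were followed in soleus muscle of StarD7 mKO and WT mice. They were chosen by name: Slc44a1, Slc44a2, Chka, Chkb, Pcyt1a, Pcyt1b, Chpt1, Cept1, Pemt and Lpcat3. All 10 were present among the 43074 gene names of each deposited table. The RNA was from 3 mKO and 3 WT libraries of soleus, a calf muscle with many slow fibres that helps to hold posture. The mKO mice carry a knockout of StarD7 (the labels write mKO, read here as muscle knockout), and WT mice are the controls. The promoter that drove the deletion, and the strain, age and sex of the mice, are not given in the sources used here. The labels do not say which mouse gave which library, though the series text speaks of 3 mice in each group. P-values therefore set the group differences against the scatter between these libraries, which may be technical.

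Phosphatidylcholine is the main phospholipid of most mammalian membranes. Most of it is made by the CDP-choline route, in which choline is carried into the cell, phosphorylated, activated with CTP and joined to diacylglycerol. In liver a further route methylates phosphatidylethanolamine. Mitochondria do not make phosphatidylcholine and receive it from other membranes, and StarD7 is a protein that brings it to them. Soleus is rich in mitochondria. The comparison asks whether RNA of the supply route differs when that carrier is reduced.

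Reads were recovered only for uniquely named genes whose values gave whole reads in all 6 libraries. They summed to 42928774 to 47404918 per library in mKO and 47171355 to 51287999 in WT. Stard7 stood at 21.3 to 34.6 TPM (transcripts per 1e6, a level per length) in mKO libraries, against 87.5 to 95.4 TPM in WT libraries. The log2 change of Stard7 was −1.83 with an SE of 0.16 and an adjusted p of 0.00585 by limma, which leaving out WT replicate 2 took above the threshold (adjusted p = 0.0703), as did testing every gene (adjusted p = 0.0858). Myh7, the slow myosin of soleus, was present at 2889 to 4281 TPM in mKO and at 2688 to 3532 TPM in WT. The 12 fast fibre markers summed to 25487 to 33065 TPM in mKO and to 42899 to 49080 TPM in WT. In the same libraries mitochondrially encoded genes took 46.8% to 48.9% of all TPM in mKO and 42.1% to 45.1% in WT, which lowers the TPM of every other gene by construction.

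No gene of the set was called. Of the 10 genes, 7 reached 1 TPM in at least 3 libraries and were tested, and 0 passed an adjusted p of 0.05 in limma-trend, where 0.52% of all 12301 genes tested passed (0.423% as lower in mKO and 0.0976% as higher). None of the 7 reached an unadjusted p of 0.05 either (count 0), where 10.7% of all genes tested did. In 2 of the 14 other settings 1 gene did. It was Slc44a1 with mitochondrially encoded genes left out (adjusted p = 0.188, limma) and Cept1 without WT replicate 2 (adjusted p = 0.677, limma). Limma-voom on recovered reads also called 0, where it called 0.821% of all genes it tested. With no filter on low values all 10 genes could be tested and 0 were called, beside 0.024% of all genes. In 0 of the 10 genes did the mKO and WT libraries separate without overlap, where 16% of all genes tested did. The tested log2 fold changes ran from −0.11 to 0.09, 6 of them below 0 and 1 above, with a median of −0.03 beside −0.01 over all genes tested. These signs depended on the scaling, since without mitochondrially encoded genes 1 of the same 7 was below 0 and 6 were above, with a median of 0.08 beside 0.09 over all genes. The median size of the change, whatever its sign, was 0.06 for the 7 genes and 0.08 for all genes tested. Summed over the 10 genes, the level was 211, 218 and 208 TPM in mKO replicates 1, 2 and 3, against 213, 218 and 223 TPM in the WT replicates. The means were 212 ± 5.05 TPM in mKO and 218 ± 4.79 TPM in WT (SD, n = 3 each), a difference of −2.63% that is about the size of the spread within a group and became 5.62% under that scaling.

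**Figure D1:**
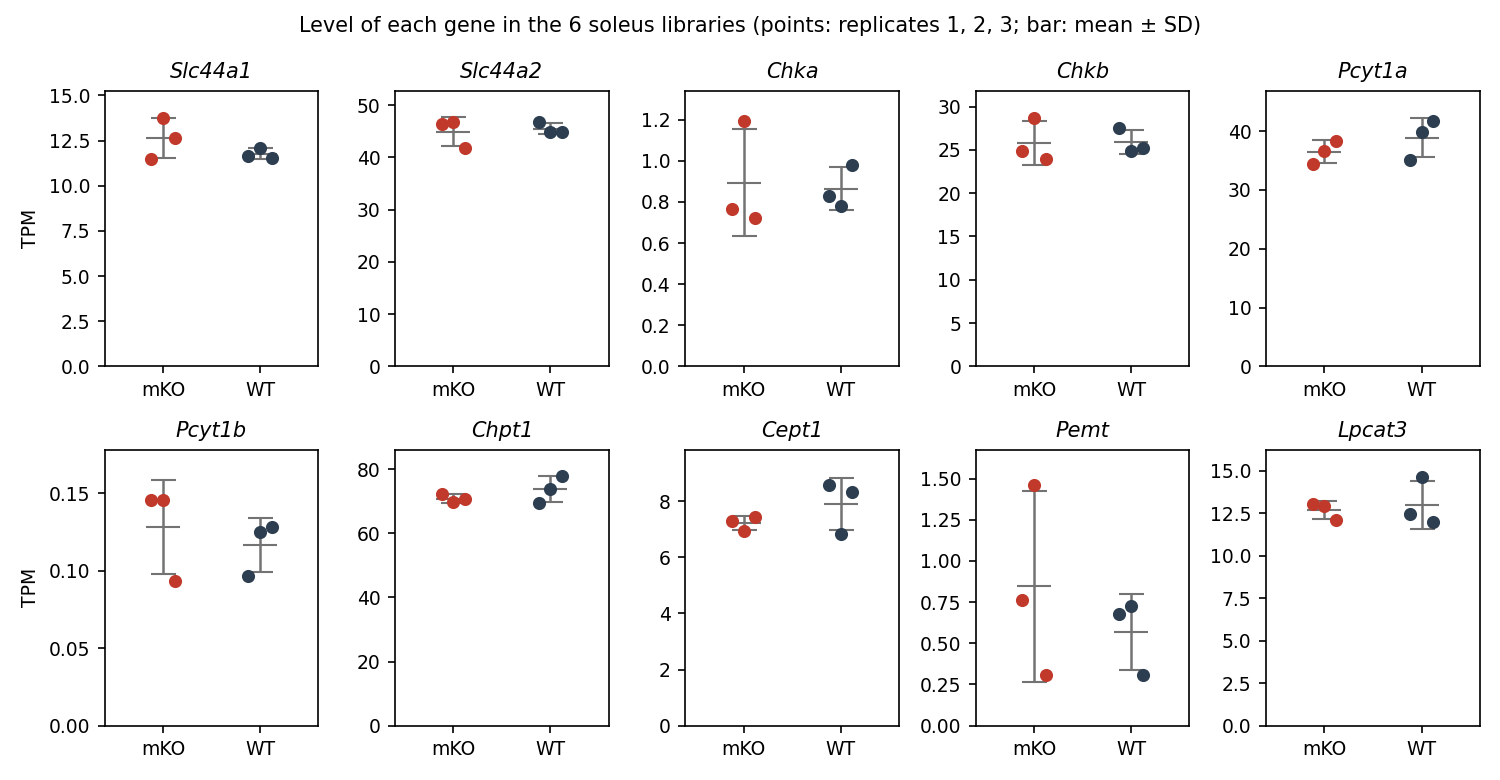
TPM of each of the 10 genes in every library, mKO left and WT right, with the 3 replicates as points and the mean ± SD as bars; each vertical axis starts at 0 and has its own scale. The points of mKO and WT overlap in all 10 panels, from Pcyt1b at 0.0933 to 0.146 TPM up to Chpt1 at 69.6 to 77.8 TPM.

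Choline enters cells through carriers, of which the CTL family members Slc44a1 and Slc44a2 are in the set. Slc44a1, a choline carrier found at the plasma membrane and in mitochondria, stood at 11.5, 13.8 and 12.7 TPM in mKO replicates 1, 2 and 3, against 11.7, 12.1 and 11.5 TPM in WT. Replicates 2 and 3 of mKO were above all WT libraries and mKO replicate 1 was below all of them, so the groups overlapped. The log2 fold change was 0.09 (SE 0.08, 95% interval −0.08 to 0.27, adjusted p = 0.736, limma), the only one above 0 among the 7. When TPM was rescaled without the mitochondrially encoded genes it was 0.21 (adjusted p = 0.188), a setting in which the median of all genes was 0.09.

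Slc44a2, a second member of the same carrier family that is expressed in many tissues, was more abundant, at 46.3, 46.7 and 41.8 TPM in mKO and at 46.7, 44.8 and 44.9 TPM in WT. The lowest value was mKO replicate 3, and the other libraries lay close together. Its log2 fold change was −0.02 (SE 0.06, 95% interval −0.16 to 0.12, adjusted p = 0.951, limma). Slc44a1 made up 21.96% ± 1.83 of the TPM of the pair in mKO and 20.6% ± 0.656 in WT (SD, n = 3 each), a difference of 1.41 points with an exact two-sided permutation p of 0.4, where 0.1 is the smallest that 3 against 3 can give. The difference was 2.45 points without mKO replicate 1 and 0.752 points without mKO replicate 3.

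The choline kinases Chka and Chkb carry out the first step, the phosphorylation of choline. Loss of Chkb in mice causes a muscular dystrophy that is most severe in the hindlimb. Chkb stood at 24.8, 28.7 and 23.9 TPM in mKO, against 27.5, 24.9 and 25.3 TPM in WT. The highest and the lowest library were both mKO. The means were 25.8 ± 2.53 TPM in mKO and 25.9 ± 1.44 TPM in WT, and the log2 fold change was −0.01 (SE 0.08, 95% interval −0.19 to 0.18, adjusted p = 0.989, limma). As a fold on the TPM + 1 scale, that interval runs from 0.875 to 1.13.

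Chka, the isoform needed for embryonic development in mice, was listed at 0.767, 1.19 and 0.723 TPM in mKO and at 0.831, 0.779 and 0.98 TPM in WT. It did not reach the level needed for testing. It rested on 174 to 312 reads per library, and with no filter its log2 fold change was 0.02 (adjusted p = 0.984, limma). On deposited TPM, Chka made up 3.31% ± 0.592 of the kinase pair in mKO and 3.23% ± 0.439 in WT (SD, n = 3 each, exact permutation p = 0.8). The difference of 0.0761 points became −0.265 points without mKO replicate 2 and 0.328 points without WT replicate 3. The share depends on the length a gene is divided by. The deposited TPM of all 10 genes gave whole reads with the exon length merged over every annotated transcript, each base counted once. For Chka that length is 12024 bases, including 6 transcripts with retained introns, while its longest coding transcript has 2549 bases. For Chkb these lengths are 3061 and 1707 bases. Dividing instead by the longest coding transcript, a choice made after seeing the data, put the share of Chka at 8.25% ± 1.39 in mKO and 8.07% ± 1.04 in WT, with the same order of the means.

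The place of Chkb in the genome bears on its value. It lies on chromosome 15 beside Cpt1b, the muscle carnitine palmitoyltransferase, on the same strand and 496 bases away in the GRCm38 annotation (GENCODE M21). The predicted gene Gm44502 overlaps both genes on that strand. Of the exon bases of Chkb, 57.6% are shared with exons of other genes, Gm44502 and C730034F03Rik. Gm44502 itself was listed at 0.841, 2.58 and 3.29 TPM in mKO, against 2.23, 2.78 and 1.98 TPM in WT. Cpt1b stood at 415, 396 and 373 TPM in mKO and at 389, 431 and 421 TPM in WT (log2 fold change −0.07, adjusted p = 0.771, limma). No source used here says how the authors' counting divided reads among overlapping genes, so the level of Chkb is uncertain to that extent. Cept1 shared 24.9% of its exon bases with genes on the other strand, Lpcat3 10.2%, Pcyt1a 9.09%, Chpt1 7.93%, Slc44a1 4.46% and Chka 1.99%. Pcyt1b, Pemt and Slc44a2 shared none.

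The cytidylyl transferases Pcyt1a and Pcyt1b form CDP-choline, and this step is the rate-limiting one of the route. Pcyt1a stood at 34.5, 36.6 and 38.4 TPM in mKO, against 35.1, 39.8 and 41.7 TPM in WT. The lowest library was from mKO and the highest was from WT, with overlap between them. Its log2 fold change was −0.09 (SE 0.08, 95% interval −0.26 to 0.09, adjusted p = 0.752, limma). Pcyt1b, the isoform enriched in mouse brain, was barely detected, at 0.146, 0.146 and 0.0933 TPM in mKO and 0.0969, 0.125 and 0.128 TPM in WT. These values rest on 10 to 17 reads per library. Pcyt1a therefore made up 99.6% ± 0.0969 of the pair in mKO and 99.7% ± 0.0204 in WT (SD, n = 3 each, exact permutation p = 0.4). The difference of −0.0555 points became −0.0217 without mKO replicate 1 and −0.111 without mKO replicate 3.

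The last step joins phosphocholine to diacylglycerol. Chpt1, which uses CDP-choline, was the most abundant gene of the set, at 72.1, 69.6 and 70.7 TPM in mKO and at 69.6, 73.7 and 77.8 TPM in WT. Its mean level was above that of 91.9% of all genes tested. The 3 mKO libraries lay within the range of the WT libraries. The log2 fold change was −0.06 (SE 0.06, 95% interval −0.18 to 0.07, adjusted p = 0.795, limma). Its interval as a fold on the TPM + 1 scale runs from 0.88 to 1.05.

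Cept1, which accepts CDP-choline and CDP-ethanolamine, stood at 7.29, 6.93 and 7.44 TPM in mKO, against 8.56, 6.84 and 8.32 TPM in WT. WT replicate 2 was below all mKO libraries, and WT replicates 1 and 3 were above them. The log2 fold change was −0.11 (SE 0.09, 95% interval −0.32 to 0.10, adjusted p = 0.736, limma), the lowest of the set. Without WT replicate 2 it was −0.20 (adjusted p = 0.677). With mitochondrially encoded genes left out it was −0.01. In that setting 9 of the 10 genes reached the level for testing, and the 8 others, Chka (0.09) and Pemt (0.32) among them, were above 0 and not called. Chpt1 made up 90.7% ± 0.247 of the pair in mKO and 90.3% ± 1.23 in WT (SD, n = 3 each, exact permutation p = 0.7). The difference of 0.451 points became 1.06 points without WT replicate 2 and −0.177 points without WT replicate 1. Over the 4 pairs of related genes the adjusted p was 0.8 for each share (Benjamini-Hochberg, exact permutation tests).

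**Figure D2:**
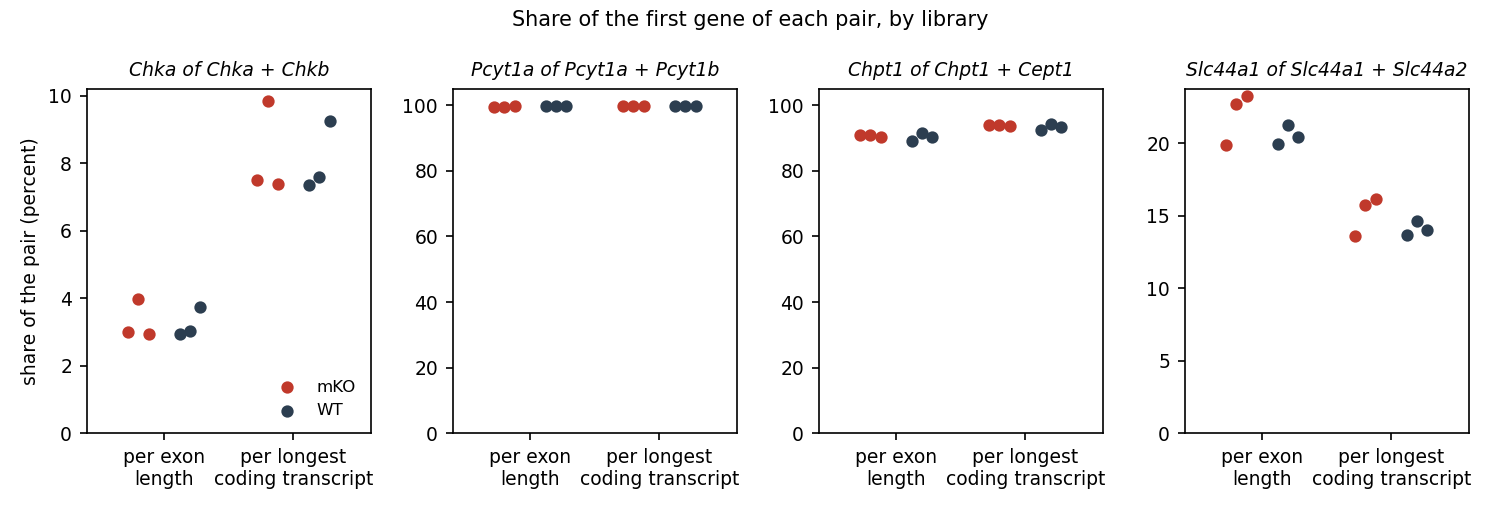
Share in percent that the first gene of each pair takes of the summed level, by library, mKO left and WT right, computed per exon length as deposited (left of each panel) and per length of the longest coding transcript (right of each panel); the vertical axes start at 0 and differ in range. Chkb, Pcyt1a, Chpt1 and Slc44a2 made up most of their pairs in all 6 libraries on both scales, and the mKO and WT points overlap in each panel.

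Pemt methylates phosphatidylethanolamine to phosphatidylcholine and is known mainly from liver. It was the most variable gene of the set, listed at 0.766, 1.46 and 0.309 TPM in mKO and at 0.678, 0.727 and 0.305 TPM in WT. The highest library, mKO replicate 2, was 4.79 times the lowest, WT replicate 3. The gene rested on 13 to 67 reads per library, each worth at most 0.0238 TPM. It was below the level for testing, and with no filter the log2 fold change was 0.20 (SE 0.24, 95% interval −0.40 to 0.79, adjusted p = 0.849, limma). That interval is too wide to show or bound a change of moderate size.

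Lpcat3, an acyltransferase that remodels phosphatidylcholine by adding polyunsaturated fatty acids to its lyso form, stood at 13.1, 12.9 and 12.1 TPM in mKO, against 12.4, 14.6 and 12.0 TPM in WT. All mKO libraries lay within the WT range. Its log2 fold change was −0.03 (SE 0.08, 95% interval −0.22 to 0.16, adjusted p = 0.943, limma).

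**Figure D3:**
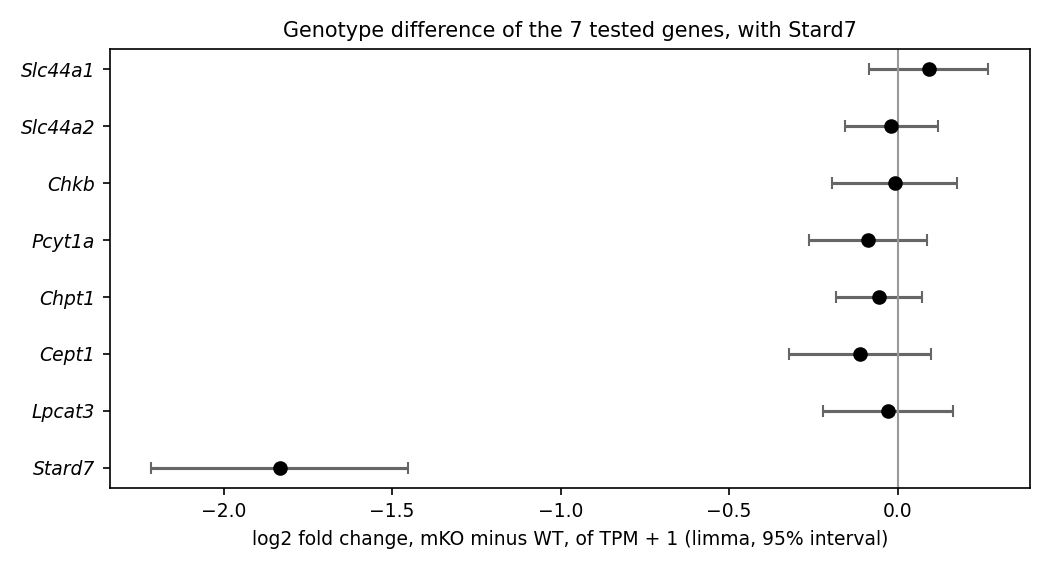
Log2 fold change, mKO minus WT, of TPM + 1 with the 95% interval from limma, for the 7 tested genes in the order of the route and for Stard7. The 7 intervals all include 0, and the widest reach, of Cept1, is −0.32, while the interval of Stard7 runs from −2.21 to −1.45.

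The genes kept nearly the same order of level in every library. Averaged over all 6 libraries, Chpt1 (72.2 TPM) was followed by Slc44a2 (45.2), Pcyt1a (37.7), Chkb (25.9), Lpcat3 (12.9), Slc44a1 (12.2), Cept1 (7.56), Chka (0.879), Pemt (0.708) and Pcyt1b (0.123). Lpcat3 and Slc44a1 overlapped in range and kept their order in 4 of 6 libraries, and Chka and Pemt overlapped and kept it in 5. The other neighbours did not overlap, although Slc44a2 at its lowest (41.8 TPM) and Pcyt1a at its highest (41.7 TPM) nearly met. Divided by the longest coding transcript, Slc44a1 came before Lpcat3, again with overlap, and Chka (4.15) no longer overlapped with Pemt (1.49).

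Summed by step, the choline carriers reached 57.6 ± 3.02 TPM in mKO and 57.3 ± 1.02 TPM in WT, and the choline kinases 26.7 ± 2.79 TPM in mKO and 26.8 ± 1.43 TPM in WT. The cytidylyl transferases reached 36.6 ± 1.92 TPM in mKO and 39.0 ± 3.38 TPM in WT, and the cholinephosphotransferases 78.0 ± 1.46 TPM in mKO and 81.6 ± 4.08 TPM in WT (SD, n = 3 each). The sums increased over the 3 enzyme steps in both groups, while the carriers stood above the kinases and the cytidylyl transferases. Each difference between groups was within 1 SD of WT. Per length of the longest coding transcript, the sums over all 6 libraries were 50.5 for the kinases, 58.4 for the cytidylyl transferases, 132.0 for the cholinephosphotransferases and 132.1 for the carriers.

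Replicate 2 of mKO was the highest library for 4 of the 10 genes (Slc44a1, Chka, Chkb and Pemt), beside 30.1% of all genes tested. Replicate 3 of mKO was the lowest for 4 of the 10 (Slc44a2, Chka, Chkb and Pcyt1b), beside 18.1% of all genes tested. Replicate 1 of mKO was the lowest for 2 of the 10, beside 27.8%, and WT replicate 3 for 2 of the 10, beside 25.3%. Macrophage markers summed to 38.6 TPM in mKO replicate 2, against 24.4 and 32.5 TPM in the other mKO libraries and 27.2 to 29.8 TPM in WT, with all 6 markers detected. Fibroblast markers summed to 809 TPM there, the highest of the 6 libraries, against 500.4 and 689 TPM in the other mKO libraries and 674 to 797 TPM in WT. Whether other cell types had a part in the higher values of that library was not tested. In bulk RNA, fewer cells of a type and less RNA per cell cannot be told apart. Adipocyte markers (145 to 158 TPM in mKO, 139 to 211 TPM in WT), endothelial markers (207 to 216 TPM in mKO, 206 to 222 TPM in WT), Schwann cell markers (32.4 to 47.0 TPM in mKO, 36.9 to 54.3 TPM in WT) and satellite cell markers (18.96 to 20.7 TPM in mKO, 18.2 to 22.1 TPM in WT) overlapped between groups, with 0 genes called in any of these lists. Those are sums, and single genes could still separate. Cdh5 of the endothelial list was lower in mKO without overlap (adjusted p = 0.535, limma). Pdgfra of the fibroblast list was higher without overlap (adjusted p = 0.437, limma). Slow fibre markers summed to 18819 to 27004 TPM in mKO and to 17405 to 22773 TPM in WT. Of these 10 markers 1 was called, Pln, as higher in mKO (log2 fold change 1.52, adjusted p = 0.000742, limma), beside 0.0976% of all genes tested. Of the 12 fast fibre markers, 5 were called as lower in mKO, beside 0.423% of all genes tested. All 12 were lower in mKO without overlap, where 16% of all genes tested separated in either direction.

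A further 8 lists covered the reactions around the route, 70 genes of which 50 were tested. Stard7 fell and the other 49 did not pass the test. The median log2 fold change over all 50, Stard7 included, was −0.02. An unadjusted p under 0.05 was found for 4 of the 50, beside 10.7% of all genes tested. Among the 16 genes that break phosphatidylcholine down to choline, 15 were tested and 0 were called, with a median of −0.05. Phospho1, a phosphatase of phosphocholine, was the most abundant of them, at 164, 183 and 176 TPM in mKO and at 165, 171 and 162 TPM in WT (log2 fold change 0.07, adjusted p = 0.739, limma).

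Gpcpd1, which releases choline from glycerophosphocholine, had the largest change of that list. It stood at 41.9, 44.6 and 42.1 TPM in mKO, against 52.7, 53.0 and 52.9 TPM in WT, with no overlap between groups. The log2 fold change was −0.30 (SE 0.05, 95% interval −0.41 to −0.18), and the adjusted p of 0.0535 by limma-trend missed the threshold. With limma-voom on recovered reads it passed (−0.25, adjusted p = 0.0462), and over the 14 other settings the adjusted p ran from 0.0462 to 0.287. The change was −0.18 with mitochondrially encoded genes left out (adjusted p = 0.136). Pla2g6, a calcium-independent phospholipase, was chosen after its values were seen. It stood at 5.77, 6.66 and 6.21 TPM in mKO and at 7.29, 7.46 and 8.09 TPM in WT, also without overlap (−0.26, adjusted p = 0.278, limma). Of the 15 tested genes of that list, these 2 were lower in mKO without overlap. Going the other way, 1 was higher without overlap, Pla2g15 (log2 fold change 0.08, adjusted p = 0.765, limma), also named after its values were seen. Among all genes tested, 16% separated in either direction.

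Phosphatidylcholine transfer was represented by Stard7, Stard10 and Pctp, of which Stard7 and Stard10 were tested. Stard10, a phosphatidylcholine transfer protein chosen after its values were seen, stood at 40.6, 40.5 and 34.2 TPM in mKO, against 32.0, 35.0 and 33.4 TPM in WT. The highest libraries were mKO replicates 1 and 2, while mKO replicate 3 lay within the WT range, and the gene was not called (log2 fold change 0.19, SE 0.08, adjusted p = 0.438, limma). Pctp was listed at 1.29, 0.456 and 0.716 TPM in mKO and at 0.730, 0.474 and 1.31 TPM in WT.

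Of the 9 other genes listed as choline or organic cation carriers, 2 were tested and 0 were called. Flvcr1, a choline carrier of the major facilitator family, stood at 5.88, 7.04 and 15.0 TPM in mKO and at 7.72, 7.74 and 6.58 TPM in WT. Its positive log2 fold change of 0.21 (adjusted p = 0.856, limma) rested on mKO replicate 3, without which it was −0.16. Slc22a3, an organic cation carrier, was at −0.22 (adjusted p = 0.758, limma), at −0.44 without WT replicate 1 (adjusted p = 0.297) and at −0.35 with a pseudocount of 0.1 (adjusted p = 0.793). Slc5a7, the high-affinity choline carrier of cholinergic neurons, was listed at 0 in all 6 libraries.

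The other lists also held no call. Of the 5 genes for other lysophosphatidylcholine acyltransferases and uptake, 2 were tested, Lpcat1 at −0.02 (adjusted p = 0.979) and Lpcat4 at 0.03 (adjusted p = 0.966, limma). Of 7 genes listed for the synthesis and breakdown of sphingomyelin, 6 were tested (median 0.03). They include Smpd1, the acid sphingomyelinase, at −0.01 (adjusted p = 0.96), and Sgms2, a sphingomyelin synthase, at 0.23 (adjusted p = 0.598, limma). Of 14 genes of choline oxidation and the methyl donor cycle, 8 were tested (median −0.04). Mat2a, which makes the methyl donor S-adenosylmethionine, was at −0.06 (adjusted p = 0.835) and Ahcyl1 at 0.12 (adjusted p = 0.65, limma). Mat1a, the liver form of that enzyme, was listed at 0 in all 6 libraries.

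All 11 genes that supply phosphatidate and diacylglycerol were tested, with a median of −0.07. Gpam, a mitochondrial glycerol-3-phosphate acyltransferase, was at −0.06 (adjusted p = 0.915, limma). Lpin1, the muscle phosphatidate phosphatase, stood at 45.8, 51.1 and 55.0 TPM in mKO, against 49.3, 68.2 and 70.9 TPM in WT, with overlap through WT replicate 1 (−0.29, SE 0.14, adjusted p = 0.503, limma). The change was −0.45 without WT replicate 1 (adjusted p = 0.123) and −0.18 with mitochondrially encoded genes left out (adjusted p = 0.506). In the parallel CDP-ethanolamine route and phosphatidylserine decarboxylation, 4 of 5 genes were tested, with a median of 0.01. Pcyt2, the cytidylyl transferase of that route, was at 0.04 (adjusted p = 0.902, limma).

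**Figure D4:**
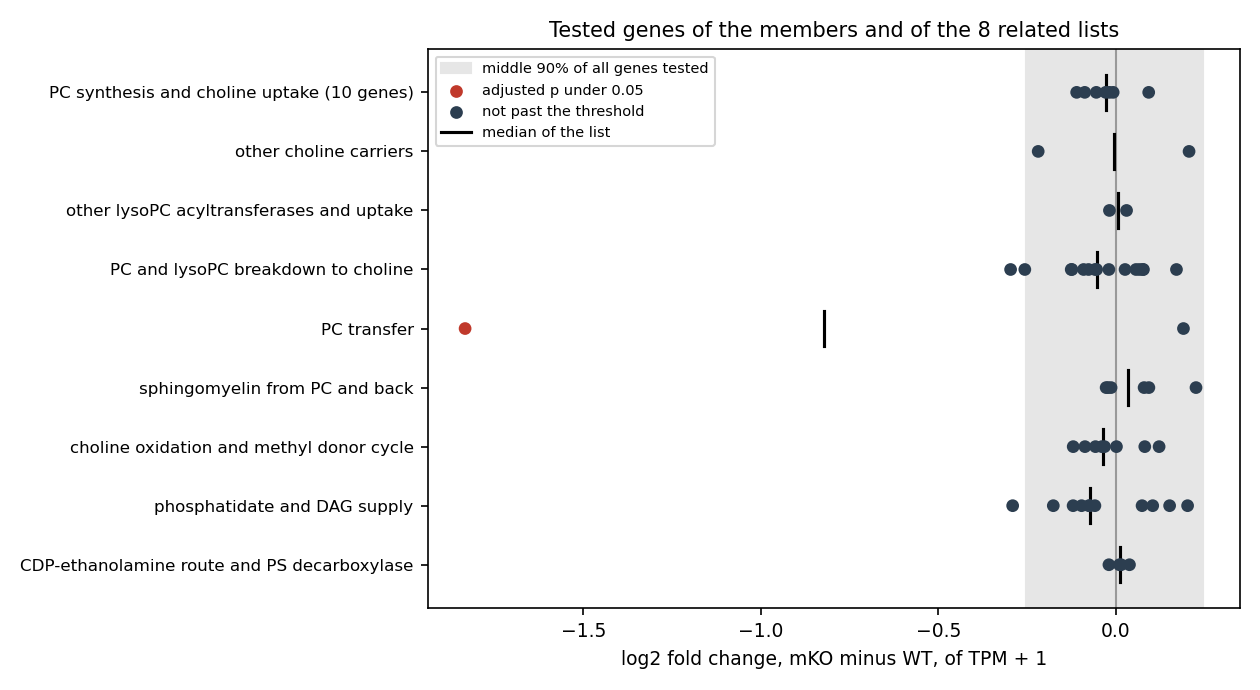
Log2 fold change, mKO minus WT, of TPM + 1 for each tested gene of the 10-gene set (top row) and of the 8 related lists, with the median of each list as a bar and the range between the 5th and the 95th percentile of all genes tested (−0.25 to 0.24) in grey. Stard7 at −1.83 is the only gene past the threshold, and the 7 tested genes of the set lie within the grey range.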

How the data were processed

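Values are TPM as the authors deposited them, 1 table per library, per the file headers. TPM is a length-scaled level with the same total in each library. The labels' protocols give a Maxwell RSC kit for the RNA and a directional NEBNext Ultra II kit, after poly(A) selection, for the libraries. The submitters' processing notes name GRCm39 as the genome build. The aligner, the counting tool, its annotation and its strand setting are not given in the sources used here. No GRCm39 annotation was used, so no coordinates are given.

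Limma-trend (limma 3.58.1, R 4.3.3) was fitted to log2(TPM + 1) by genotype alone. A gene was tested where 3 or more libraries had at least 1 TPM, which left 12301. P-values were adjusted by Benjamini-Hochberg across all of them and called under 0.05. Log2 fold changes (mKO minus WT) are too small for genes of low TPM. Genes below the filter were fitted with no filter (24964 genes). Intervals are 95% intervals of the fit. Shares were compared by exact two-sided permutation tests over libraries.

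TPM multiplied by GENCODE M21 exon length and a scale per library gave whole reads, within 0.05, in all 6 libraries for 93.12% of 22734 uniquely named genes above 0, and for all 10 genes described. Since 58.55% of the recovered values above 0 were even, read pairs may count as 2 reads at least in part, and reads measure depth only roughly.

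The genes and lists were chosen with earlier results of these data known. Named genes were the 10 genes, Stard7, Cpt1b and any entry overlapping it and Chkb, the called genes of each list, and otherwise its most abundant gene and its tested gene with the largest change. The test was checked on simulated data. Alternatives were other pseudocounts (0.1 and 0.5), filters and scalings, limma-voom on the recovered reads, a replicate block and leaving out each library.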

Additional observations from a re-analysis of the deposited data

How the results depend on the processing

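The number of the 10 genes called was 0 in all 14 other settings. Over all genes, 64 were called, against 41 with median-of-ratios scaling, 41 with mitochondrially encoded genes left out, 6 with no filter on low values, 21 with the replicate block and 4 to 94 when a library was left out; the cause was not tested. Of the related lists 1 gene was called, Stard7, against 2 with limma-voom and 0 with no filter, and 0 to 1 when a library was left out. Correlations of deviations from the group means were low between libraries of the same replicate number (0.09, 0.05 and 0.13 for numbers 1, 2 and 3). Each library still correlated best with its own number. With 3 libraries per group this cannot decide whether the numbers pair the samples. A block leaves a difference of mean shares as it is by construction, and cannot show stability. The exact sign-flip p was 0.75 for Chka, 0.5 for Pcyt1a, 0.75 for Chpt1 and 0.5 for Slc44a1, where 0.25 is the smallest possible.

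With mitochondrially encoded genes left out, the median change over all genes was 0.09 in place of −0.01. The summed level of the 10 genes was then 5.62% above WT in place of −2.63%, and signs turned for Chkb (0.108), Pcyt1a (0.0275), Chpt1 (0.0615), Slc44a2 (0.0981), Lpcat3 (0.0836), Lpcat1 (0.0773), Smpd1 (0.103), Mat2a (0.0593) and Gpam (0.0580), none of them called. Signs also turned with limma-voom for Chkb (0.0450), Slc44a2 (0.0333), Lpcat3 (0.0233), Lpcat1 (0.0299) and Smpd1 (0.0379), and with median-of-ratios scaling for Chkb (0.00908) and Smpd1 (0.00345). With a library left out, changes of either sign were found for Chkb (−0.0834 to 0.0431), Slc44a2 (−0.0466 to 0.0322), Lpcat3 (−0.0816 to 0.0516), Lpcat1 (−0.116 to 0.0547), Lpcat4 (−0.0860 to 0.113), Flvcr1 (−0.163 to 0.446), Gpam (−0.179 to 0.0428), Smpd1 (−0.0412 to 0.0187) and Pcyt2 (−0.0123 to 0.0854). The difference in share then ran from −0.265 to 0.328 points for Chka, from −0.177 to 1.06 points for Chpt1, from 0.752 to 2.45 points for Slc44a1 and from −0.111 to −0.0217 points for Pcyt1a. Named genes not compared across all settings included the untested Chka, Pcyt1b, Pemt, Pctp, Slc5a7 and Mat1a. Cpt1b, Gm44502, Pla2g15, Myh7 and Pln were also not compared in this way. Of the named genes that were compared, Stard7 alone kept its sign and moved by less than 1.5 times in every setting. Among the others, leaving out mitochondrially encoded genes gave larger or smaller changes of the same sign for Stard10 (0.309), Pla2g6 (−0.163), Sgms2 (0.362) and Ahcyl1 (0.239). The same held for Phospho1 (0.184), Pcyt2 (0.15), Lpcat4 (0.128), Flvcr1 (0.323) and Slc22a3 (−0.191). The change of Sgms2 was also larger with limma-voom (0.464) and a pseudocount of 0.1 (0.378). None of these were called. Depth limits Pcyt1b (10 to 17 reads per library) and Pemt (13 to 67) most. Chka rested on 174 to 312 reads, and its place below the filter also depends on the length it is divided by. Per longest coding transcript it was at 3.41 to 5.62.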
